A study of Mus musculus with 8 samples.

Results

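The 10 genes described here, C1qa, C1qb, C1qc, Csf1r, Cx3cr1, P2ry12, Aif1, Trem2, Tyrobp and Mrc1, mark microglia and the macrophages at the borders of the brain. They were taken by symbol from a table of 27179 genes counted in embryonic mouse cerebral cortex, and all 10 were in the table and passed the filter on low counts. Polyadenylated RNA came from 4 wild-type embryos (Taf8 +/+) and 4 Taf8-deleted embryos (Taf8 -/lox), 1 library per embryo. The product of Taf8 belongs to TFIID, the complex that binds core promoters for RNA polymerase II. The sources used here do not give the embryonic day, the strain or the driver that recombined the lox allele, so they do not say which cell types lost Taf8, or whether microglia did. The question was whether RNA of these immune cells differed between Taf8-deleted and Taf8-intact cortex.

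Microglia are the resident macrophages of brain tissue, and border macrophages lie in the meninges and along vessels. Both arise outside the neural lineage, from early blood-forming cells that enter the embryonic brain, and both depend on the receptor encoded by Csf1r. C1q, built of the C1qa, C1qb and C1qc chains, starts the classical complement cascade and is made in the brain mainly by microglia. The receptor of Cx3cr1 reads the neuronal ligand CX3CL1, that of P2ry12 reads nucleotides, and that of Trem2 reads lipids and signals through the adaptor of Tyrobp.

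Libraries held 26312505 to 65523487 counts, and levels are given in CPM, counts scaled to library size, so that 3 counts correspond to 0.0469 to 0.112 CPM. Taf8 itself was at 32.0 to 38.5 CPM in the wild-type libraries and at 0.486 to 0.791 CPM in the Taf8-deleted libraries. The cortical regulator Emx1, at 72.4 CPM in wild-type and 59.4 CPM in deleted cortex, was well above the floor, as the tissue label has it. No animal number of 1 group shares its first part with the other group, and genotype and a litter or batch, if that part stands for one, cannot be told apart. Wild-type replicates 1 to 3 share that part (408.4, 408.5 and 408.6), and if it marks a litter their spread may be smaller than that between litters. Tissue was sequenced in bulk, so fewer cells of a type and less RNA per cell cannot be told apart.

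RefSeq promoter sequences of GRCm38.p6, the build mm10, were matched for 7 of the 10 genes, all but C1qa, Csf1r and Tyrobp. Those of 3 genes that were higher in Taf8-deleted cortex and of Cx3cr1, which was lower, are shown 5′ to 3′ on the gene's strand, up to the last base before the gene. Capitals mark GAGGAA or its reverse complement TTCCTC, the purine-rich core that the myeloid factor PU.1 is known to bind.
C1qb (minus strand, chr4:136886201-136886450): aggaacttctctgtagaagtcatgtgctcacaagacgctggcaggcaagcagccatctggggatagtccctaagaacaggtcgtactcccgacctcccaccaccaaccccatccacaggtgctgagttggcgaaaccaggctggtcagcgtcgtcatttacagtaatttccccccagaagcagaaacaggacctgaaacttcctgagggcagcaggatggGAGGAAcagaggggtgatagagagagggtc
C1qc (minus strand, chr4:136892937-136893164): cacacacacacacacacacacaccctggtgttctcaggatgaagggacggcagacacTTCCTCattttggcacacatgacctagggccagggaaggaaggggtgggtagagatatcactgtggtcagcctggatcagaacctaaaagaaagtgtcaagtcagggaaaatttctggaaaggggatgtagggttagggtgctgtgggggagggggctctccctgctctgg
Trem2 (plus strand, chr17:48346151-48346400): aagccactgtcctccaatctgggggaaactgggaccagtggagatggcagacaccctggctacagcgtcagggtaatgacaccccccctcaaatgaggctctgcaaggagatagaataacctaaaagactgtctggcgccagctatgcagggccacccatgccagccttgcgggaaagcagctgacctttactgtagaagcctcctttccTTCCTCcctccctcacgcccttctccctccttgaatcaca
Cx3cr1 (minus strand, chr9:120068297-120068546): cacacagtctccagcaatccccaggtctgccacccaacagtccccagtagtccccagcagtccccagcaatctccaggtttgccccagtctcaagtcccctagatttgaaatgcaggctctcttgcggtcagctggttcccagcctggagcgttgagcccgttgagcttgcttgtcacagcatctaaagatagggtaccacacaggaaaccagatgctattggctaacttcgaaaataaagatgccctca

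In the 250 bases before the start site, GAGGAA stood on either strand in 5 of the 7 matched genes (C1qb, C1qc, Aif1, Trem2 and, 3 times, Mrc1), and in 23.3% of all 32851 such windows in the table. It began 30 bases before the start of C1qb and 40 bases before that of Trem2. The Aif1 match began 7 bases before the start site used for the window, which lies inside the gene by its RefSeq coordinates, as does the match. The TATA box sequence TATAAA, which the TBP subunit of TFIID is known to bind, was on neither strand in any of the 7 windows and was in 12.4% of all windows. A match describes the letters only, and says nothing of binding.

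The C1q genes C1qb and C1qc, the receptor pair Trem2 and Tyrobp, Aif1 and Csf1r were higher in Taf8-deleted cortex, and Cx3cr1 was lower. By edgeR's quasi-likelihood test with adjustment over 15649 genes and a threshold of 0.05, 6 of the 10 genes rose (C1qb, C1qc, Csf1r, Aif1, Trem2 and Tyrobp), Cx3cr1 fell, and C1qa, P2ry12 and Mrc1 did not pass. Of all tested genes 59.2% were called, 29.5% as higher and 29.6% as lower, so 7 called of 10 is near the background, and the 6 rises stand against that 29.5%. The median log2 fold change was 0.42 over the 10 genes and 0.01 over all tested genes. Standard errors ran from 0.08 to 0.24 for these genes, while the median over all tested genes was 0.07. The 10 genes were counted at 33 to 800 reads per library. The groups did not overlap in 5 genes with the deleted libraries above (26.6% of all tested genes) and in 1 gene with them below (27% of all tested genes), 6 in all against 53.6%. C1qb, C1qc and Aif1 were called and at least 1.5-fold higher, 3 of the 10 genes and 10.9% of all tested genes.

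**Figure D1:**
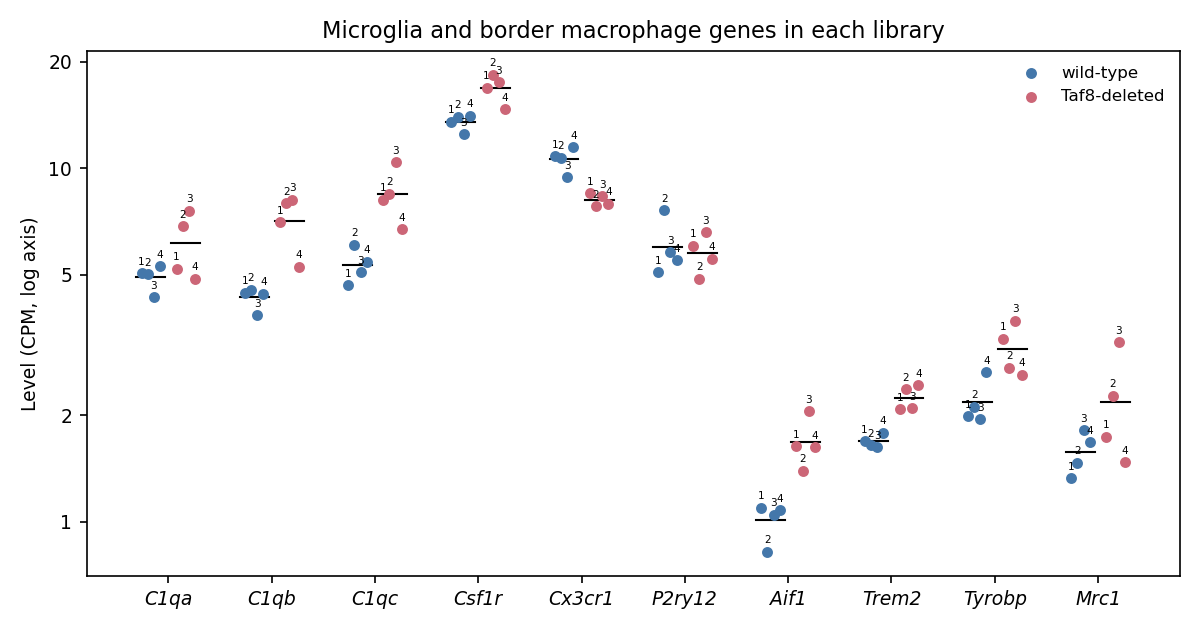
Level of each gene in CPM on a log axis, with 1 point per library labelled by replicate number and a bar at the group mean (wild-type blue, Taf8-deleted red, 4 libraries each). The deleted points of C1qb, C1qc, Csf1r, Aif1 and Trem2 lie above all wild-type points, and those of Cx3cr1 lie below them.

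Per base of gene length, C1q transcripts were the most abundant of the 10 in both groups. On the scale of CPM per kilobase the wild-type order was C1qc (5.05 ± 0.564, SD, n = 4), C1qa (4.54 ± 0.384), C1qb (4.06 ± 0.295), Tyrobp (3.83 ± 0.569) and Csf1r (3.49 ± 0.185), and each of these overlapped its neighbour over the 4 libraries. Cx3cr1 (2.85 ± 0.228) and P2ry12 (2.56 ± 0.481) overlapped each other. All Cx3cr1 values lay below those of Csf1r, while the highest P2ry12 value lay within the range of Csf1r. Trem2 (1.55 ± 0.0658), Aif1 (1.16 ± 0.145) and the border macrophage gene Mrc1 (0.296 ± 0.0408) followed with no overlap between neighbours. In Taf8-deleted cortex the order began with C1qc (8.001 ± 1.44), C1qb (6.69 ± 1.24) and C1qa (5.66 ± 1.21), Cx3cr1 (2.19 ± 0.0876) stood between P2ry12 (2.46 ± 0.312) and Trem2 (2.06 ± 0.168), and Mrc1 (0.409 ± 0.145) was again last. The deleted ranges of P2ry12, Cx3cr1, Trem2 and Aif1 overlapped from each neighbour to the next.

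The 3 C1q genes lie side by side on chromosome 4, from 136880126 to 136898844, within 18.7 kb (mm10). C1qb, the B chain, was at 4.45, 4.54, 3.85 and 4.41 CPM in wild-type replicates 1 to 4 and at 7.04, 7.95, 8.15 and 5.27 CPM in Taf8-deleted replicates 1 to 4. All deleted libraries lay above all wild-type libraries, with deleted replicate 4 nearest to them, and the rise was 1.64-fold (log2 fold change 0.72, SE 0.14, adjusted p = 0.00126). C1qc, the C chain, was at 4.68, 6.08, 5.08 and 5.44 CPM in the wild-type and at 8.15, 8.47, 10.4 and 6.72 CPM in the deleted libraries. The groups were again apart, by a 1.57-fold rise (log2 fold change 0.65, SE 0.13, adjusted p = 0.00179). C1qa, the A chain, was at 5.04, 5.01, 4.32 and 5.28 CPM in the wild-type and at 5.20, 6.85, 7.59 and 4.87 CPM in the deleted libraries. Here deleted replicates 1 and 4 lay among the wild-type values, and the difference did not pass the test (log2 fold change 0.31, SE 0.15, adjusted p = 0.0932). Without deleted replicate 4 it passed, at a log2 fold change of 0.40 (adjusted p = 0.0349).

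The chains of C1q assemble together, so their ratios within a library were compared, which needs no scaling between libraries. The log2 ratio of C1qb to C1qa counts was -0.18, -0.14, -0.17 and -0.26 in the wild-type libraries and 0.44, 0.22, 0.10 and 0.11 in the deleted libraries, so C1qa had more counts than C1qb in every wild-type library and fewer in every deleted library. The log2 ratio of C1qa to C1qc was lower in the deleted libraries by 0.36, from a mean of -0.11 ± 0.18 (SD, n = 4) to -0.47 ± 0.14, again with no overlap. The log2 ratio of C1qb to C1qc differed by only 0.05, with overlapping groups. The exact two-sided permutation p was 0.0286 for each of the first 2 ratios, the smallest that 70 splits allow, and 0.1 after adjustment over the 7 ratios compared, so neither passed. The 7 adjusted values could fall under 0.05 only if several ratios reached that smallest p together.

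**Figure D2:**
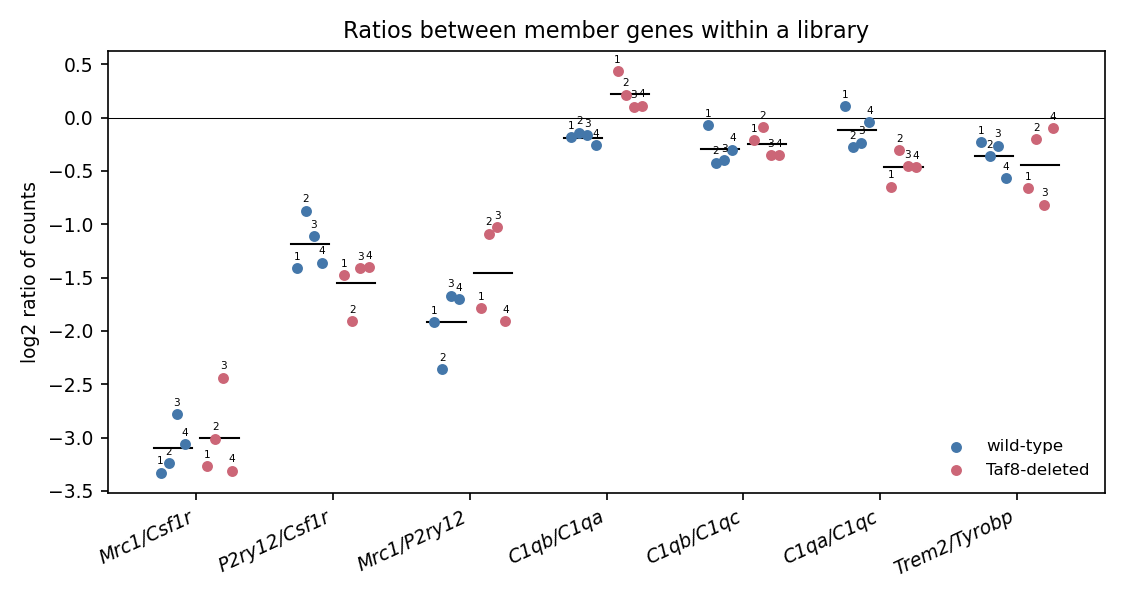
Log2 ratio of the counts of 2 genes within each library (points labelled by replicate, bars at the group means, wild-type blue, Taf8-deleted red). The C1qb/C1qa ratio is below 0 in the 4 wild-type libraries and above 0 in the 4 deleted libraries, and the other ratios overlap between groups except C1qa/C1qc.

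Receptors of the microglial surface differed in direction. Csf1r, the receptor for the survival factors CSF1 and IL-34, was at 13.5, 13.98, 12.5 and 14.1 CPM in the wild-type and at 16.9, 18.4, 17.5 and 14.7 CPM in the deleted libraries. The groups did not overlap, and the rise was 1.25-fold (log2 fold change 0.32, SE 0.08, adjusted p = 0.00553). Cx3cr1 (chromosome 9, 120048683 to 120068296) was at 10.8, 10.7, 9.45 and 11.5 CPM in the wild-type and at 8.52, 7.82, 8.34 and 7.95 CPM in the deleted libraries. Every deleted library lay below every wild-type library, deleted replicate 4 included, and the fall was 1.30-fold (log2 fold change -0.38, SE 0.08, adjusted p = 0.00183). It was called with each of the 8 libraries left out in turn, at log2 fold changes of -0.43 to -0.35. Within libraries the log2 ratio of Cx3cr1 to Csf1r was -0.32, -0.38, -0.41 and -0.29 in the wild-type and -0.99, -1.23, -1.07 and -0.88 in the deleted libraries. That ratio was chosen after its values were seen and is given without a test.

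P2ry12 (chromosome 3, 59216271 to 59262985), the ADP receptor of resting microglia, was at 5.08, 7.63, 5.79 and 5.49 CPM in the wild-type and at 6.04, 4.87, 6.58 and 5.55 CPM in the deleted libraries. The groups overlapped throughout (log2 fold change -0.06, SE 0.14, adjusted p = 0.724), and without wild-type replicate 2, the highest, the sign turned (log2 fold change 0.06). Its log2 ratio to Csf1r was -1.19 ± 0.25 in wild-type and -1.55 ± 0.24 in deleted cortex (SD, n = 4, exact permutation p = 0.0857, adjusted over 7 ratios 0.2), a difference that did not pass.

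The genes of the Trem2 receptor and its adaptor rose, though less securely. Trem2 (chromosome 17, 48346401 to 48352276) was at 1.69, 1.65, 1.63 and 1.79 CPM in the wild-type and at 2.08, 2.37, 2.09 and 2.44 CPM in the deleted libraries. The groups did not overlap, and deleted replicate 4 was the highest (1.33-fold, log2 fold change 0.42, SE 0.12, adjusted p = 0.013). Tyrobp (chromosome 7, 30413782 to 30417582), which carries the signal of Trem2 and other receptors into the cell, was at 1.99, 2.12, 1.96 and 2.65 CPM in the wild-type and at 3.30, 2.73, 3.70 and 2.60 CPM in the deleted libraries. Wild-type replicate 4 lay above deleted replicate 4, and the rise was 1.41-fold (log2 fold change 0.49, SE 0.16, adjusted p = 0.019). The call of Tyrobp was lost without wild-type replicate 2 (adjusted p = 0.0526), without deleted replicate 1 (0.0522) and without deleted replicate 3 (0.0638). The log2 ratio of Trem2 to Tyrobp was -0.36 ± 0.15 in wild-type and -0.44 ± 0.35 in deleted cortex, with overlapping groups.

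Aif1 (chromosome 17, 35170986 to 35176083) encodes IBA1, the calcium-binding protein by which microglia are commonly stained. It was at 1.10, 0.822, 1.05 and 1.08 CPM in the wild-type and at 1.64, 1.40, 2.06 and 1.62 CPM in the deleted libraries, from 33 to 86 counts. The groups did not overlap, and the rise of 1.65-fold (log2 fold change 0.73, SE 0.17, adjusted p = 0.00399) had the highest point estimate of the 10 genes, within the standard error of those of C1qb and C1qc.

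Mrc1 (chromosome 2, 14229414 to 14332023) encodes the mannose receptor CD206 of border macrophages. It was at 1.33, 1.47, 1.81 and 1.68 CPM in the wild-type and at 1.74, 2.27, 3.22 and 1.47 CPM in the deleted libraries. Deleted replicates 2 and 3 lay above the wild-type range and replicates 1 and 4 within it, and the difference did not pass (log2 fold change 0.43, SE 0.24, adjusted p = 0.139). Without deleted replicate 4 it passed (log2 fold change 0.57, adjusted p = 0.0478). The log2 ratio of Mrc1 to P2ry12 was -1.91 ± 0.32 in wild-type and -1.45 ± 0.46 in deleted cortex (SD, n = 4, exact permutation p = 0.229, adjusted 0.401), and that of Mrc1 to Csf1r was -3.10 ± 0.24 and -3.01 ± 0.40 (adjusted 0.714).

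**Figure D3:**
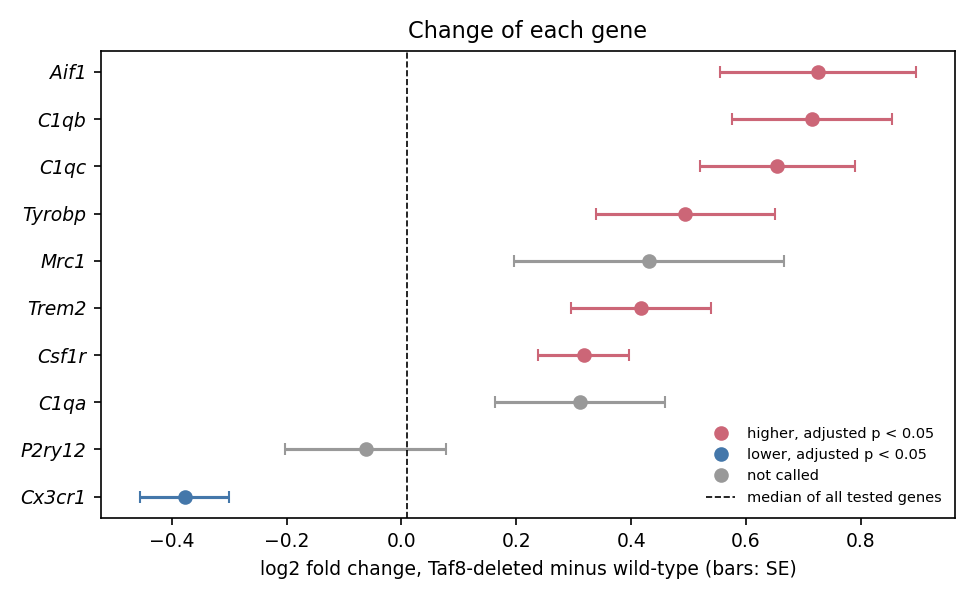
Log2 fold change of each gene, Taf8-deleted minus wild-type, with its standard error (4 libraries per group), red where higher and blue where lower at an adjusted p under 0.05, and grey where not called. Genes run from Cx3cr1 at -0.38 to Aif1 at 0.73, and the dashed line is the median of all tested genes at 0.01.

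The other markers of microglia, from a list of 18, mostly did not pass the test. Of 17 tested, 2 were higher (Tgfbr1 and Ctss), 1 was lower (Olfml3) and 14 were not called, with a median log2 fold change of 0.06. The shares over all tested genes, 29.5% higher and 29.6% lower, are the background for this and the following lists. Of the 2 higher calls 1 was lost without wild-type replicate 1 or 2, or without deleted replicate 2 or 3. Olfml3, a secreted protein of microglia, fell from 6.58 ± 0.844 to 4.11 ± 0.396 CPM (log2 fold change -0.69, adjusted p = 0.000486) with no overlap between groups. The lysosomal protease gene Ctss was at 5.60 ± 1.05 and 7.53 ± 1.29 CPM (adjusted p = 0.0409), with overlapping groups. Tgfbr1, at 147 ± 14.6 and 185 ± 11.3 CPM, and Sall1, at 147 and 146 CPM, are also known from neural cells, and together they make up most of the summed level of the list. Among markers picked out as well known after their values were seen, Tmem119 was at 1.503 ± 0.174 and 1.48 ± 0.243 CPM, P2ry13 at 2.15 ± 0.260 and 2.09 ± 0.115 CPM, and Siglech at 1.47 ± 0.330 and 1.46 ± 0.231 CPM.

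Of the other border macrophage markers 6 of 16 passed the filter. Of these 3 were higher (Lyve1, Stab1 and Tgfbi) and Maf was lower. The higher count was 2 without deleted replicate 3, and 6 of 8 tested without deleted replicate 4. Lyve1, a hyaluronan receptor, was at 0.0332, 0.125, 0.0782 and 0.289 CPM in the wild-type and at 0.185, 0.811, 1.23 and 0.302 CPM in the deleted libraries (adjusted p = 0.0186). Deleted replicates 2 and 3 were the highest, as for Mrc1. The Lyve1 groups overlapped, and its standard error was large (log2 fold change 2.17, SE 0.68). Its wild-type libraries held only 1 to 11 counts. Lyve1 passed the filter mostly through the deleted libraries, so its call carries little weight. Stab1, a scavenger receptor also made by endothelium, rose from 11.3 ± 0.747 to 15.4 ± 2.68 CPM, and Tgfbi rose from 2.74 ± 0.502 to 4.69 ± 0.662 CPM. The transcription factor gene Maf, which cortical interneurons also express, fell from 21.2 ± 2.15 to 13.8 ± 2.20 CPM.

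Of the pan-leukocyte genes 3 of 16 rose (Cd52, Cd53 and Fcgr3), Coro1a fell and 12 were not called, with a median log2 fold change of 0.24. Fcgr3, an Fc receptor, rose from 1.68 ± 0.250 to 2.48 ± 0.238 CPM. Cd52, a surface glycoprotein of leukocytes, was at 0.0955 ± 0.0303 CPM in wild-type and 0.516 ± 0.197 CPM in deleted cortex. Its wild-type libraries held only 2 to 7 counts, near the floor. Cd52 passed the filter through the deleted libraries alone, so its call carries little weight. Coro1a, at 48.6 ± 1.43 and 42.0 ± 2.05 CPM, is known from neurons as well. Ptprc, the common leukocyte antigen CD45 and also named after its value was seen, was at 1.03 ± 0.229 and 1.03 ± 0.145 CPM (adjusted p = 0.958). Of the monocyte and neutrophil markers 1 of 14 passed the filter (Csf3r, not called), and of the lymphocyte and mast cell markers 2 of 13. Of these 2, Cd79a, near the floor in wild-type cortex, rose from 0.174 ± 0.0456 to 0.37 ± 0.123 CPM. Like Cd52, Cd79a passed the filter through the deleted libraries alone, so its call carries little weight. Kit, which neural cells also express, fell from 89.4 ± 5.15 to 72.4 ± 3.59 CPM and makes up nearly all of the summed level of its list. Ly6g, Camp, Chil3, Cd3e, Trbc1 and Gzma had 0 counts in all 8 libraries.

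Ligands of the 10 genes' receptors were read in the same fit, together with Tgfb1, a factor that microglia depend on and whose receptor is not among the 10. Cx3cl1, the ligand of Cx3cr1, rose 1.56-fold while its receptor gene fell. It was at 18.2, 17.8, 18.2 and 18.4 CPM in the wild-type and at 26.9, 31.2, 28.4 and 26.7 CPM in the deleted libraries (log2 fold change 0.64, SE 0.06, adjusted p = 6.78e-06). The Csf1r ligand genes Csf1 (10.6 ± 0.745 and 9.83 ± 0.743 CPM) and Il34 (0.377 ± 0.0764 and 0.374 ± 0.0732 CPM) did not pass. Apoe, a lipid carrier that TREM2 binds, rose from 28.4 ± 2.60 to 39.1 ± 7.45 CPM (adjusted p = 0.0117), and its deleted replicate 4, at 28.2 CPM, lay within the wild-type range. Tgfb1 was at 3.18 ± 0.281 and 3.87 ± 0.321 CPM, close to the threshold (adjusted p = 0.0485), and Clu was at 23.9 CPM in both groups.

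Of 10 transcription factor genes of the myeloid lineage 3 were higher (Irf8 and Mef2a among them), 2 lower (Ikzf1 and Mef2c) and 5 not called. Those counts are near the shares over all tested genes, 29.5% higher and 29.6% lower. Irf8, which microglia need for their development, rose 2.86-fold and was at 1.73, 2.54, 1.89 and 1.84 CPM in the wild-type and at 6.22, 5.36, 6.62 and 4.83 CPM in the deleted libraries (log2 fold change 1.52, SE 0.15, adjusted p = 1.29e-05). Spi1, which encodes PU.1, was at 1.29 ± 0.140 and 1.49 ± 0.223 CPM and did not pass (adjusted p = 0.308). Ikzf1, a factor of blood cells and of early cortical progenitors, fell 3.83-fold, from 7.63 ± 0.617 to 2.00 ± 0.175 CPM (adjusted p = 2.33e-07). Mef2c, which cortical neurons express strongly, fell from 108 ± 23.6 to 72.6 ± 9.13 CPM, and Mef2a was at 39.1 ± 3.90 and 44.8 ± 1.94 CPM (adjusted p = 0.0291), a call lost without wild-type replicates 1, 2 or 4 or deleted replicates 1, 2 or 4 (adjusted p of 0.0666 to 0.116). Runx1, Cebpa, Cebpb and Irf5 did not pass, with means of 0.527 to 1.84 CPM in wild-type cortex.

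Downstream of Trem2 and Tyrobp, 1 of 10 tested signalling genes was higher, the kinase gene Lyn at 4.29 ± 0.613 and 5.72 ± 1.07 CPM (adjusted p = 0.0357), and 9 were not called, with a median log2 fold change of 0.10. The call of Lyn was lost without wild-type replicate 2, 3 or 4, without deleted replicate 2 or 3, and with a replicate block. Of 13 tested genes of a complement list outside C1q, 7 fell, Masp2 rose and 5 were not called, with a median log2 fold change of -0.24. The list also holds Csmd1, Csmd2, Sez6 and Srpx2. Over all tested genes 29.6% were lower. The groups did not overlap in 4 genes with the deleted libraries below (27% of all tested genes) and in 1 above (26.6%). The lower count was 5 without wild-type replicate 3, without deleted replicate 3 or with a replicate block. Against a 1.2-fold change it was 2. The inhibitor of C1, Serping1, fell from 9.50 ± 1.04 to 5.09 ± 0.943 CPM, and properdin, Cfp, fell from 14.8 ± 1.04 to 9.09 ± 1.17 CPM. Sez6, a neuronal protein with complement-like domains, fell from 509 ± 24.2 to 417 ± 7.05 CPM. C3 and C4b, components downstream of C1, did not pass the filter, at 0.252 and 0.0327 CPM in wild-type cortex.

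Of 14 tested genes of phagocytosis and microglial activation 5 were higher, 3 lower and 6 not called. Over all tested genes the shares were 29.5% higher and 29.6% lower, so these counts are near the background. Lyz2, the macrophage lysozyme, rose from 1.45 ± 0.330 to 2.72 ± 0.551 CPM (adjusted p = 0.00309), with no overlap between groups. The lysosomal protease genes Ctsd (133 ± 5.40 and 168 ± 16.4 CPM) and Ctsl (47.9 ± 4.6 and 59.9 ± 2.01 CPM), which most cells express, also rose. Lpl, a lipoprotein lipase that is known from neurons as well as from activated microglia, fell from 36.1 ± 3.84 to 15.3 ± 1.88 CPM. The cytokine genes Il1b and Tnf and the activation markers Itgax, Gpnmb and Cst7 did not pass the filter, at 0.00391 to 0.213 CPM in wild-type cortex.

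**Figure D4:**
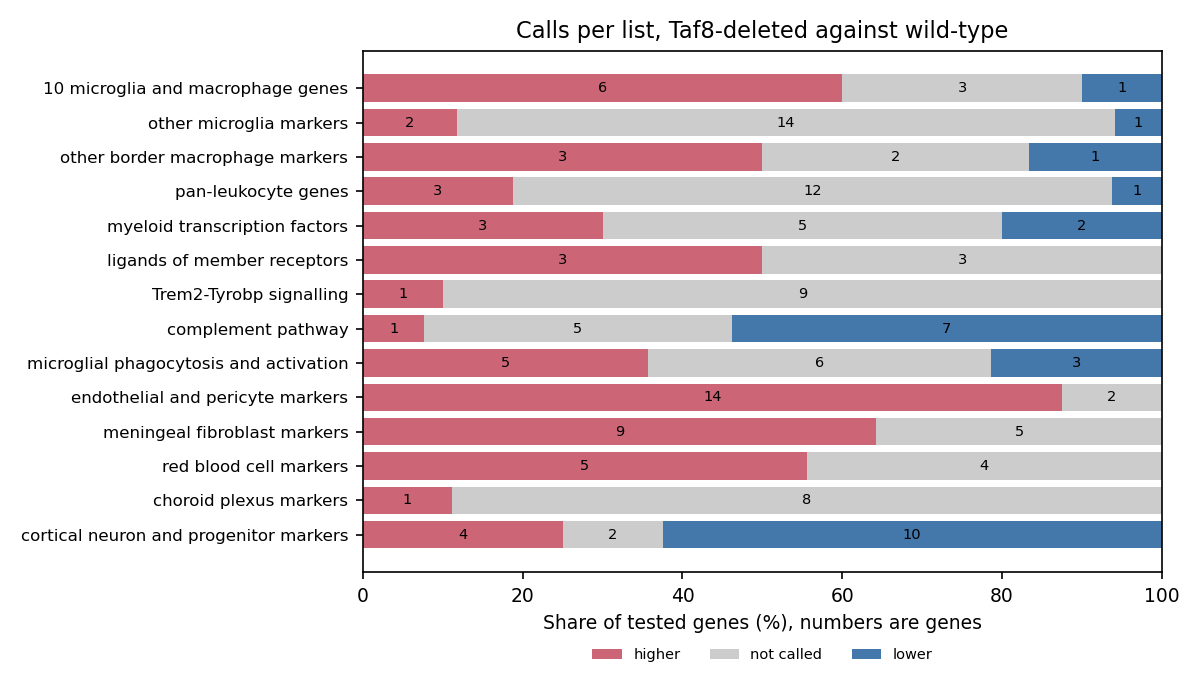
Share of the tested genes of each list that were higher (red), not called (grey) or lower (blue) in Taf8-deleted cortex, with the number of genes in each segment, for lists with at least 5 tested genes. The 10 genes have 6 higher and 1 lower, the other microglia markers 2 higher and 1 lower, and the endothelial and pericyte markers 14 higher.

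Markers of vessels, meninges and blood were higher in the same libraries. The summed level of the 10 genes was 49.7, 54.0, 47.4 and 53.4 CPM in the wild-type and 60.6, 63.1, 69.7 and 53.2 CPM in the deleted libraries. Deleted replicate 3 was highest and deleted replicate 4 lay within the wild-type range. Endothelial and pericyte markers, with 14 of 16 higher and a median log2 fold change of 0.34, summed to 236 to 248 CPM in the wild-type and to 320, 327, 357 and 281 CPM in the deleted libraries, in which replicate 3 was again highest and replicate 4 lowest. Meningeal fibroblast markers, with 9 of 14 tested higher and a median of 1.04, summed to 202 to 270 CPM and to 347, 413, 431 and 291 CPM, in the same order. Red blood cell markers, with 5 of 9 tested higher and a median of 0.53, summed to 259 to 338 CPM in the wild-type and to 441 to 472 CPM in deleted replicates 1 to 3, and replicate 4 had 350 CPM. The choroid plexus list was at 16.0 to 1263 CPM in the deleted and at 16.8 to 426 CPM in the wild-type libraries, with wild-type replicate 4 and deleted replicate 1 the highest of their groups. With 1 library left out the higher counts ran from 9 to 14 for the endothelial, from 5 to 12 for the meningeal and from 2 to 7 for the red blood cell list. The lowest was without deleted replicate 3 for the endothelial and meningeal lists and without deleted replicate 2 for the red blood cell list, and the highest of the latter 2 lists was without deleted replicate 4. Markers of cortical neurons and progenitors went mostly the other way, with 10 of 16 lower, 4 higher and a median log2 fold change of -0.26. The neuronal gene Neurod6 fell from 556 ± 86.6 to 217 ± 30.3 CPM, and the progenitor gene Nes rose from 515 ± 42.2 to 979 ± 34.9 CPM.

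With the mean level of the meningeal list as a covariate, 4 of the 10 genes were still higher and Cx3cr1 was still lower, and Csf1r (log2 fold change 0.16, adjusted p = 0.11) and Tyrobp (0.27, adjusted p = 0.229) were not called. In mean log2 CPM the meningeal list was at 1.18 to 2.14 in wild-type and 1.40 to 3.36 in deleted libraries. The red blood cell list was at 2.762 to 3.261 and 3.256 to 3.846. In both lists only deleted replicate 4 lay within the wild-type range, so these covariates are largely tied to genotype. With the red blood cell list as a covariate 1 gene, Aif1, was higher and Cx3cr1 was lower, with 6693 genes called in all. In that fit the log2 fold change of Trem2 was 0.43 (adjusted p = 0.11), against 0.42 without the covariate, while that of C1qb was 0.27 (adjusted p = 0.188) and that of Csf1r 0.07 (adjusted p = 0.54). The endothelial list, whose mean log2 CPM did not overlap between groups (3.27 to 3.34 and 3.48 to 3.89), can hardly be told apart from genotype. With it as a covariate, a fit added after the data were seen, edgeR called 0 of the 10 genes as higher and 0 as lower, against 1 and 1 at an unadjusted p under 0.05, and it called 3425 genes in all against 9257. In that fit Cx3cr1 had a log2 fold change of -0.42 (adjusted p = 0.114) and Trem2 one of 0.64 (adjusted p = 0.083). The part of vessel, meningeal, blood or neural cells in the differences of the 10 genes was not tested beyond these fits.

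**Figure D5:**
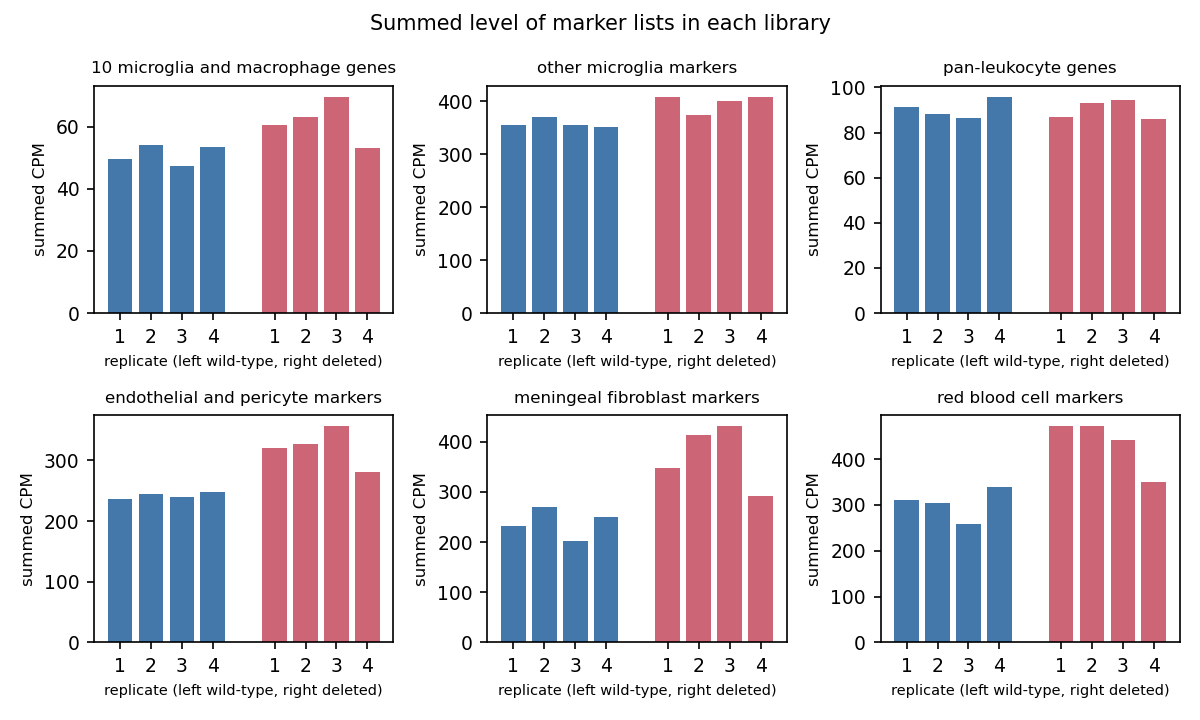
Summed CPM of the 10 genes and of 5 marker lists in each library (bars from 0, replicates 1 to 4, wild-type blue on the left, Taf8-deleted red on the right). Deleted replicate 4 has the lowest deleted bar for the 10 genes (53.2 CPM) and for the endothelial, meningeal and red blood cell lists (281, 291 and 350 CPM).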

How the data were processed

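The authors deposited raw read counts per Entrez gene for 8 libraries of embryonic cortex, with the gene length used in counting. Per the submitters' processing notes, Subread 1.5.0 and featureCounts were used on mm10, and per the labels' protocols libraries came from a stranded mRNA kit. The sources used here give neither the annotation nor the strand setting nor the handling of reads with several map positions, so overlapping and antisense genes are uncertain. Symbols and coordinates came from a RefSeq table of GRCm38.p6, which named 25275 of 27179 genes. Of the listed symbols, 2 red blood cell genes (Hbb-bt and Ahsp) were not matched, and a second name of Cr1l was dropped.

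The test was edgeR 4.0.16 under R 4.3.3 (filterByExpr, TMM scaling, quasi-likelihood test on group, Benjamini-Hochberg over 15649 genes). Each standard error was obtained from a gene's log2 fold change and F statistic. The steps were tested on simulated counts with 200 changed genes, far fewer than the 9257 called in these data. That setting does not show how the steps behave when so many genes differ. Ratios of 2 genes used counts plus 0.5 and an exact permutation test over 70 splits. No 2 libraries of a group agreed within sampling noise (chi-square per degree of freedom 3.7 to 28.4).

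The genes and the 15 lists set beside them were chosen with earlier results of these data known. All 10 genes, ligands and myeloid factors were to be named, with up to 4 genes of each other list by smallest adjusted p, though not every such gene is reported here, and further names are marked in the text or given for their level alone. Alternatives were other scalings, filters and thresholds, DESeq2 1.42.0, limma 3.58.1 voom, a replicate block, marker lists as covariates and each library left out.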

Additional observations from a re-analysis of the deposited data

Results flagged for a closer look

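In 36 groups of 4 libraries (levels of the 10 genes, their sum, and 7 ratios), 1 library stood apart from the other 3 by Dixon's test, a number below the 1 in 20 that chance alone gives. It was Taf8-deleted replicate 2, whose log2 ratio of P2ry12 to Csf1r was -1.91, while the other deleted libraries lay at -1.48, -1.41 and -1.40. That library had the lowest P2ry12 level (4.87 CPM) and the highest Csf1r level (18.4 CPM) of its group.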

How the results depend on the processing

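The count of 6 higher and 1 lower of the 10 genes was the same under the 3 other scalings, both other filters, DESeq2 and both voom fits. At an adjusted p under 0.01 in the main edgeR fit, 4 were higher and 1 lower, and Trem2 and Tyrobp were not called. At that threshold 3511 of all 15649 tested genes were higher and 3648 lower. Leaving out 1 library gave 5 to 8 higher and 1 lower, a median log2 fold change of 0.336 to 0.477 (0.424 with all), and 8404 to 9450 genes called in all. The highest count, 8, was without Taf8-deleted replicate 4. A test against a 1.2-fold change gave 3 higher, 0 lower and 4635 genes in all (edgeR, with 5 higher and 1 lower at an unadjusted p under 0.05). The red blood cell covariate gave 1 higher and a median of 0.182, and the endothelial covariate, added later, gave 0 higher, 0 lower, a median of 0.0612 and 3425 genes in all; the cause was not tested. Signs turned for C1qa with the meningeal (-0.0115), red blood cell (-0.0972) and endothelial (-0.153) covariates, for Mrc1 with the meningeal (-0.0195) and endothelial (-0.566) ones, for Spi1 with the red blood cell (-0.088) and Apoe with the endothelial one (-0.145), and for P2ry12 without wild-type replicate 2 (0.0556, in a range of -0.141 to 0.0556 with 1 library left out). With 1 library left out the log2 ratios moved from -0.0933 to 0.203 for Mrc1/Csf1r, -0.439 to -0.243 for P2ry12/Csf1r, 0.309 to 0.611 for Mrc1/P2ry12, 0.33 to 0.442 for C1qb/C1qa, -0.00469 to 0.124 for C1qb/C1qc, -0.411 to -0.282 for C1qa/C1qc and -0.202 to 0.0377 for Trem2/Tyrobp. The C1qb/C1qc sign turned without Taf8-deleted replicate 2, and those of Mrc1/Csf1r and Trem2/Tyrobp without replicate 3.

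Same-numbered libraries did not deviate together (correlations of -0.464 to 0.0138). No pairing by number was seen, though without a reference from differently numbered libraries this check cannot exclude one. With a replicate block 5 of the 10 genes were higher and 1 lower, with a median of 0.415, and Tyrobp was the gene not called (0.493, adjusted p = 0.0582). Tgfb1 lost its call in 16 of 22 alternatives. Standard errors of the 10 genes ran from 0.08 (Cx3cr1) to 0.24 (Mrc1).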

Other observations

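Among 13644 other genes with a mean of at least 1 CPM, those whose profile over the 8 libraries lay closest to the mean profile of the 10 genes were Esam, Pcdhga3, Ccdc8, Map3k14 and Lama4, with root mean square differences of 0.0525 to 0.0643 on the log2 scale. Esam, an adhesion molecule of endothelium, was at 12.1 CPM in wild-type and 15.0 CPM in Taf8-deleted cortex, and Lama4, a laminin of vessel walls, was at 22.2 and 26.9 CPM. Of the 500 closest genes 10 were among the 15 ranked endothelial and pericyte markers. In the same 500 were 0 of 15 other microglia markers, 1 of 12 pan-leukocyte genes and 1 of 4 other border macrophage markers. As 500 is a small part of the 13644 genes compared, 0 or 1 from so short a list says nothing of that list. The profile averages genes that moved in both directions, and any gene with a like step between groups ranks high, so the order is a description only.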
